A study of Mus musculus with 6 samples.

Results

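The genes Gabra2, Gabra3, Gabra5, Gabra6, Gabrb1, Gabrb2 and Gabrd encode subunits of the GABA-A receptor, and their expression was compared between Crebbp knockout and wild-type mouse cerebellum. They were chosen by name, as 7 of 22180 genes with a named probe set. Each of the 7 had 1 probe set annotated to that gene alone, so no choice between probe sets was needed. Expression was measured on 3 arrays from knockout mice (Math1Cre::CrebbpFl/Fl, with both Crebbp alleles floxed) and 3 arrays from wild-type mice (Math1Cre, with wild-type Crebbp). All 6 samples were whole cerebellum at postnatal day 7, and both groups carried Math1Cre, a Cre recombinase driven by the promoter of Math1 (Atoh1), which is active in granule neuron precursors and other derivatives of the rhombic lip. In which cells Crebbp was lost is not measured here. Crebbp encodes a lysine acetyltransferase and transcriptional coactivator. The labels do not tie each array to an animal of its own. P-values therefore reflect the variation among these 6 samples, some of it perhaps technical.

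GABA-A receptors are pentameric chloride channels opened by GABA, the main inhibitory transmitter of the brain. Alpha and beta subunits form the GABA binding site, and a gamma or delta subunit usually completes the channel and helps to set where it sits. In the cerebellum the alpha 6 subunit is found almost only in granule neurons, where it appears as they settle in the inner layer and, with delta, forms receptors outside the synapse that carry tonic inhibition. Alpha 2, alpha 3 and alpha 5 are prominent in the immature brain, and in granule neurons the subunit set shifts towards alpha 6 as the cells mature.

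The sequences before the start sites of Gabra6 and Gabrb2 are shown because these genes are neighbours on chromosome 11 and had the same highest and the same lowest array. They are the 250 bases before an annotated start, from RefSeq (GRCm38.p6), read 5′ to 3′ on the gene's strand. The first covers chr11:42321073-42321322 on the minus strand, and the second chr11:42420190-42420439 on the plus strand, the first of 3 starts listed for Gabrb2. Capitals mark the matches found to 3 motifs, searched on both strands.
Gabra6: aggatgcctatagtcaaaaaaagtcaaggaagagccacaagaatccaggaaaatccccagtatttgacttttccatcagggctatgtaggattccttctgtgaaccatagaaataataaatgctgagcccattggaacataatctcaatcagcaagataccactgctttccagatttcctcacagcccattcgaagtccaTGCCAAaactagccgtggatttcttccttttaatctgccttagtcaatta
Gabrb2: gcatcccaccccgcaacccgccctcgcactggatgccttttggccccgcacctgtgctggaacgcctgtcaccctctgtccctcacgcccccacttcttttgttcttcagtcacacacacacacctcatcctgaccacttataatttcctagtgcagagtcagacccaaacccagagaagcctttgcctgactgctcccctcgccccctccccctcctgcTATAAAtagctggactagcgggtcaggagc
The capitals for Gabra6 are TTGGCA, a half-site of the nuclear factor I (NFI) family, read on the opposite strand 45 to 50 bases before the start. NFI proteins are transcription factors that act on Gabra6 in maturing granule neurons. The half-site was present in 12.3% of 32841 such windows in the mouse table and in 1 of the 10 windows listed for the members. The capitals for Gabrb2 are TATAAA, the core of the TATA box, 25 to 30 bases before the start. That motif was present in 12.4% of all windows and in 3 of the members' 10, of which the other two are overlapping windows of Gabra3. The half-site of the CREB binding element, TGACG, was in 17.8% of all windows and in 0 of the members' 10. Windows were listed for 6 of the 7 members and not for Gabrd. A match is a description of these letters only.

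Array medians were 7.25 to 7.29 on knockout arrays and 7.25 to 7.26 on wild-type arrays. The deposited values were made with RMA, which sets arrays to a common scale, so these medians do not show that the samples were alike. Crebbp, the targeted gene, read 11.46, 11.42 and 11.32 on the knockout arrays, against 11.96, 11.99 and 11.90 on the wild-type arrays. The sources used here do not give whether its probe set covers the deleted part. Choroid plexus tissue differed between samples: Ttr, its most abundant transcript, lay above 10 on knockout replicates 1 and 3 (13.77 and 13.92) and wild-type replicate 1 (12.30). It read 9.19 on knockout replicate 2 and 8.08 and 8.91 on wild-type replicates 2 and 3. Results are therefore also given without those 3 arrays, a comparison that holds 1 knockout array.

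None of the 7 GABA-A receptor genes passed the threshold, an adjusted p under 0.05 in limma with adjustment over all 22180 genes. The background was 3.94% of genes that fell and 2.72% that rose. All 7 means were lower in knockout, as were those of 50.9% of all genes, with log2 changes of -0.997 to -0.14 and a median of -0.29, beside a median of -0.0028 over all genes. At an unadjusted p under 0.05, 5 of 7 were lower (Gabra2, Gabra3, Gabra5, Gabra6 and Gabrd), where the background was 10.9%. At an adjusted p under 0.1, 3 of 7 were lower (Gabra3, Gabra6 and Gabrd), where the background was 5.82%. The knockout values of 3 of 7 lay wholly below the wild-type values (Gabra3, Gabra6 and Gabrd), where the background was 13.1%. The genes were proposed with earlier results of these data known, so these shares are descriptions and were not tested as a set. In a whole-tissue sample, fewer cells of a type and less RNA per cell cannot be told apart.

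**Figure D1:**
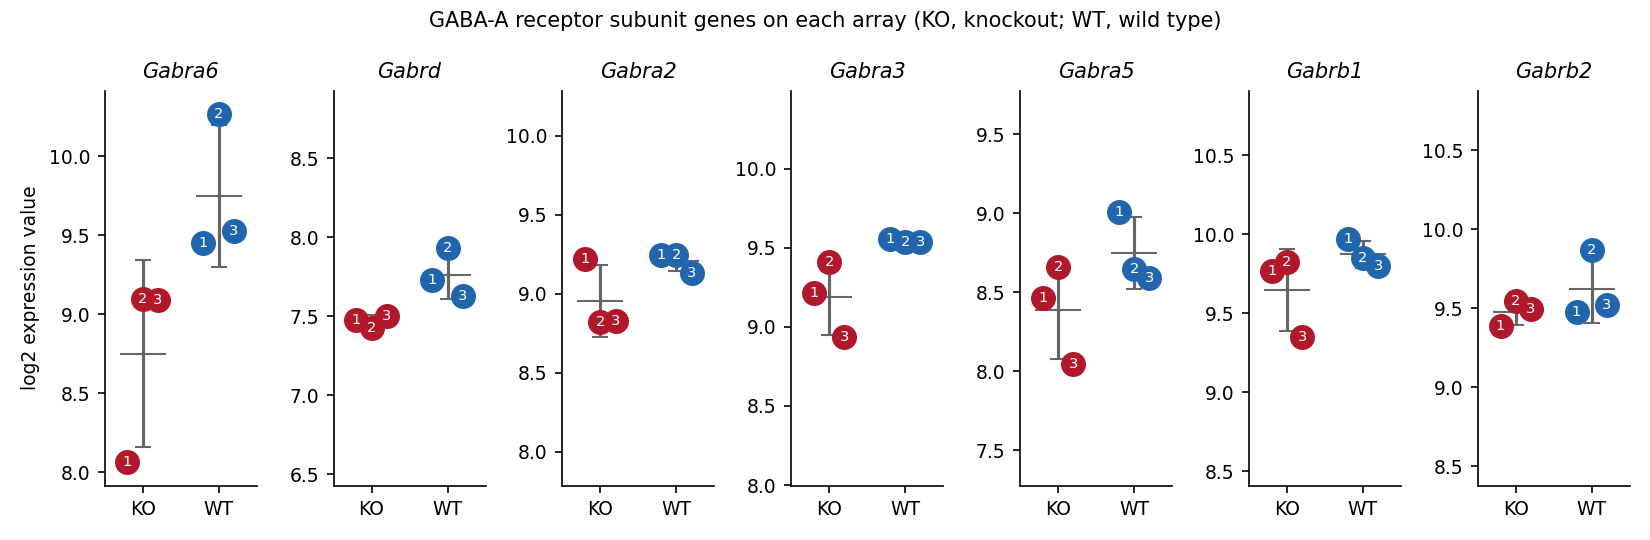
Log2 expression value of each of the 7 subunit genes on the 3 knockout arrays (KO, red) and the 3 wild-type arrays (WT, blue). Numbers in the points are replicate numbers, bars are the mean ± SD (n = 3 each), and every panel spans the same height on the log2 scale. The groups do not overlap for Gabra6, Gabrd and Gabra3.

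Gabra6, which encodes the alpha 6 subunit of granule neurons, had the largest difference of the 7 and the largest spread. It read 8.07, 9.10 and 9.09 on the knockout arrays, against 9.45, 10.27 and 9.53 on the wild-type arrays. The groups did not overlap, but knockout replicate 1 lay far below the other knockout arrays and wild-type replicate 2 far above the other wild-type arrays. The mean was 8.75 ± 0.59 in knockout and 9.75 ± 0.45 in wild type (SD, n = 3 each). The log2 change was -0.997 (SE 0.28, 95% confidence interval -1.61 to -0.38, limma adjusted p = 0.0627), so the knockout level was 0.501 of the wild-type level, with an interval of 1.30-fold to 3.06-fold lower. The within-group SD of Gabra6, 0.53, was above that of 99.7% of genes, whose median was 0.096. Its change was -0.65 without knockout replicate 1 (adjusted p = 0.117) and -0.74 without wild-type replicate 2 (adjusted p = 0.196). It was -0.80 without the 3 arrays with high Ttr (adjusted p = 0.161), where knockout replicate 2 at 9.10 still lay below wild-type replicates 2 and 3 at 10.27 and 9.53.

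Gabrd encodes the delta subunit, the partner of alpha 6 in the extrasynaptic receptors of granule neurons. It read 7.48, 7.43 and 7.50 on the knockout arrays, against 7.73, 7.93 and 7.63 on the wild-type arrays. The knockout values sat close together, and all lay below the wild-type values. The mean was 7.47 ± 0.04 in knockout and 7.76 ± 0.15 in wild type (SD, n = 3 each), a log2 change of -0.29 (SE 0.09, interval -0.49 to -0.10, limma adjusted p = 0.0774). Across the fits with 1 array fewer, it was -0.36 to -0.21, with an adjusted p of 0.0541 to 0.224. Without the arrays with high Ttr it was -0.35 (adjusted p = 0.389).

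Gabra3, the alpha 3 gene on the X chromosome, had the tightest wild-type values of the 7. It read 9.21, 9.41 and 8.94 on the knockout arrays, against 9.55, 9.54 and 9.54 on the wild-type arrays. The groups did not overlap, and the knockout values were spread over a range many times wider than the wild-type range. The mean was 9.19 ± 0.24 in knockout and 9.54 ± 0.0094 in wild type (SD, n = 3 each), a log2 change of -0.36 (SE 0.10, interval -0.58 to -0.14, limma adjusted p = 0.0617). It passed without knockout replicate 2 (-0.47, adjusted p = 0.0118), the highest of its group. Without the arrays with high Ttr the change was -0.13 (adjusted p = 0.694). Xist, the RNA of the inactive X chromosome, was high on knockout replicate 3 (12.30) and wild-type replicates 1 and 2 (12.27 and 12.32). It was 5.79 and 6.45 on knockout replicates 1 and 2 and 5.74 on wild-type replicate 3, so both groups held both kinds of sample. With Xist as a covariate the Gabra3 change was -0.41 and passed (adjusted p = 0.0423). The knockout array with high Xist had the lowest Gabra3 of all 6 arrays, while the wild-type arrays with high and low Xist were nearly equal.

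Gabra5, the alpha 5 gene, is best known from extrasynaptic receptors of the hippocampus. It read 8.47, 8.66 and 8.05 on the knockout arrays, against 9.01, 8.65 and 8.59 on the wild-type arrays. The groups overlapped, since knockout replicate 2 lay above wild-type replicates 2 and 3. The log2 change was -0.36 (SE 0.15, interval -0.69 to -0.02, limma adjusted p = 0.213). It was 0.037 without the arrays with high Ttr (adjusted p = 0.955), -0.19 without knockout replicate 3 (adjusted p = 0.460) and -0.23 without wild-type replicate 1 (adjusted p = 0.539).

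Gabra2, the alpha 2 gene, encodes a subunit common at synapses of the young brain. It read 9.22, 8.82 and 8.83 on the knockout arrays, against 9.25, 9.25 and 9.13 on the wild-type arrays. Knockout replicate 1 lay among the wild-type values, while knockout replicates 2 and 3 lay below all of them. The log2 change was -0.25 (SE 0.10, interval -0.48 to -0.03, limma adjusted p = 0.178). It passed without knockout replicate 1 (-0.39, adjusted p = 0.0165), and was -0.37 without the arrays with high Ttr (adjusted p = 0.150).

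The beta subunits line the channel with alpha and are needed for receptors to reach the surface. Gabrb1 read 9.77, 9.82 and 9.35 on the knockout arrays, against 9.97, 9.85 and 9.80 on the wild-type arrays. Its groups overlapped, and knockout replicate 3 alone lay far below the rest. The log2 change was -0.22 (SE 0.11, interval -0.47 to 0.02, limma adjusted p = 0.292), and it was -0.08 without knockout replicate 3. Leaving out the arrays with high Ttr gave 0.0027. Gabrb2, a common partner of alpha 6 in granule neurons, read 9.39, 9.55 and 9.49 on the knockout arrays, against 9.48, 9.87 and 9.52 on the wild-type arrays. Only wild-type replicate 2 stood apart. The log2 change was -0.14 (SE 0.09, interval -0.36 to 0.07, limma adjusted p = 0.459), and -0.02 without wild-type replicate 2. These intervals leave room for Gabrb1 to be up to 1.38-fold and Gabrb2 up to 1.28-fold lower in knockout.

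**Figure D2:**
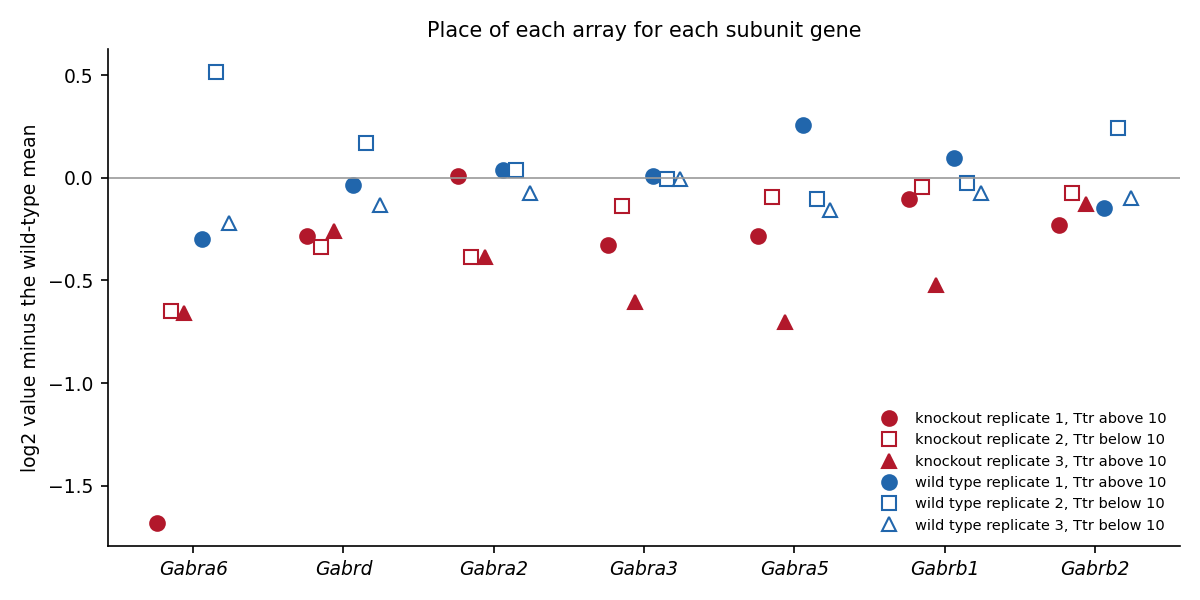
Log2 value of each array minus the wild-type mean, for the 7 subunit genes. Red symbols are knockout and blue wild type, the shape gives the replicate, and filled symbols are the 3 arrays with Ttr above 10. Knockout replicate 1 is lowest for Gabra6 (-1.68), and knockout replicate 3 is lowest for Gabra3, Gabra5 and Gabrb1 (-0.61, -0.70 and -0.52).

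The arrays that set the lowest and highest values differed between the subunit genes. Knockout replicate 3 was the lowest of all 6 arrays for Gabra3, Gabra5 and Gabrb1, and wild-type replicate 1 the highest for the same 3. Knockout replicate 1 was the lowest for Gabra6 and Gabrb2, and wild-type replicate 2 the highest for these and for Gabrd and Gabra2. Knockout replicate 2 was the lowest for Gabra2 and Gabrd. The places of Gabra2 were near ties. It read 8.824 and 8.827 on knockout replicates 2 and 3, and 9.249 and 9.248 on wild-type replicates 2 and 1. The 3 wild-type values of Gabra3 were also nearly equal. Within the 3 arrays with high Ttr, 2 knockout and 1 wild type, the log2 change was -0.87 for Gabra6, -0.75 for Gabra5, -0.48 for Gabra3, -0.41 for Gabrb1, -0.24 for Gabrd, -0.22 for Gabra2 and -0.04 for Gabrb2. These 3 arrays still differed in choroid plexus markers. The marker means were 8.61 and 9.30 on knockout replicates 1 and 3, against 7.63 on wild-type replicate 1. Without those arrays, leaving 1 knockout and 2 wild type, it was -0.80 for Gabra6, 0.037 for Gabra5, -0.13 for Gabra3, 0.0027 for Gabrb1, -0.35 for Gabrd, -0.37 for Gabra2 and -0.15 for Gabrb2. The differences of Gabra5 and Gabrb1 were thus near 0 without the arrays with high Ttr, and that of Gabrb2 near 0 within them. None passed in either fit, and each fit has a group of 1 array. The genes most like Gabra6 across the 6 arrays were Olfr164, Zfp729b and Clrn2, with Pearson's r of 0.990, 0.986 and 0.986. They were the highest of 12933 genes with an SD of at least 0.1, and the 6 arrays share the split between groups.

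Marker lists of the cell types in the tissue moved with these genes to different extents, and their part in the results was not tested. The list for maturing granule neurons leaves out Gabra6. Of its 19 measured markers, 14 fell, 0 rose and 5 did not pass, where the background was 3.94% that fell and 2.72% that rose. Changes were negative for 17 of the 19, as for 50.9% of all genes, and the largest positive change was 0.34. The mean log2 value of the 19 was 10.30, 10.37 and 10.31 on the knockout arrays, against 10.67, 10.77 and 10.60 on the wild-type arrays. Slc17a7, the vesicular glutamate transporter, fell by 0.81 (SE 0.07), the calcium-dependent kinase gene Camk4 by 0.79 (SE 0.06), the calcium sensor gene Vsnl1 by 0.49 (SE 0.06) and the NFI gene Nfix by 0.39 (SE 0.05). The number of these markers that fell was 7 without wild-type replicate 1 and 7 with eBayes without a trend. It was also 7 when the fit adjusted for choroid plexus level, where 1 rose. Over all genes, 366, 310 and 324 fell in these fits. With the replicate block, 16 of the markers fell and 1 rose, where 1078 genes fell in all. With the arrays of high Ttr left out, a fit with 1 knockout array, Slc17a7 was at -0.75 and Camk4 at -0.86. These genes had the smallest p of the list in the main fit, so they do not stand for the whole list. Fewer of its markers fell in that fit than in the main fit, as over all genes. Markers of the oligodendrocyte lineage averaged 9.10, 9.46 and 8.81 on the knockout arrays, against 9.56, 9.49 and 9.49 on the wild-type arrays. Their order over the knockout arrays was that of Gabra3, Gabra5 and Gabrb1, and also of Slc6a11, an astrocyte gene given further on. That order is not particular to this lineage. It also held for the marker means of inhibitory interneurons and Golgi cells, of Bergmann glia and astrocytes, and of microglia. Of 9 measured oligodendrocyte lineage markers, 1 fell (Mog, a myelin protein gene), beside 3.94% of all genes. All 9 changes were negative, as were 50.9% over all genes, and the median change was -0.39. At an unadjusted limma p under 0.05, 8 of the 9 were lower, where the background was 10.9%. The choroid plexus list averaged 8.61, 7.01 and 9.30 on the knockout arrays, against 7.63, 6.99 and 7.04 on the wild-type arrays, and 0 of its 10 measured genes passed. Of these 10, 0 had a negative change, 6 had an unadjusted limma p under 0.05, and the median change was 0.96. Over all genes, 50.9% had a negative change and 10.9% were lower at that p. The share of genes higher at that p is not given here. Meninges, with 0 of 8 past the threshold, averaged 8.88, 9.02 and 9.43 on the knockout arrays, against 8.74, 8.83 and 8.86 on the wild-type arrays. Of these 8, 1 had a negative change, 5 had an unadjusted limma p under 0.05, and the median change was 0.30. The same shares over all genes apply to this list.

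**Figure D3:**
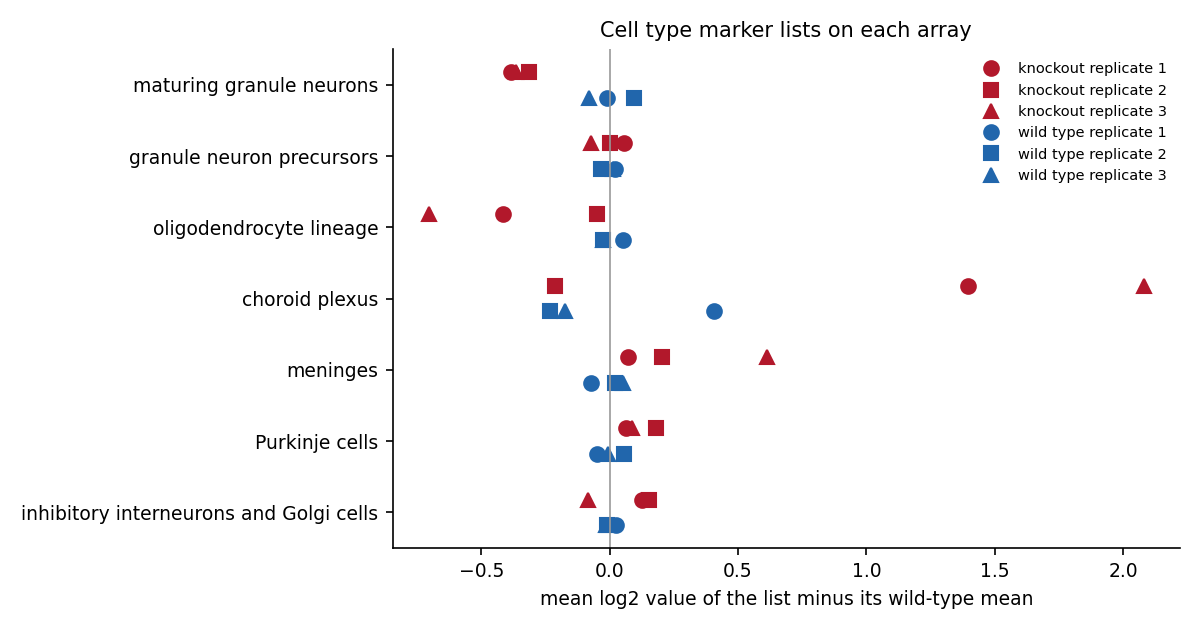
Mean log2 value of 7 cell type marker lists on each array, minus the list's wild-type mean. Red symbols are knockout and blue wild type, and the shape gives the replicate. Maturing granule neuron markers are lower on every knockout array, while choroid plexus and oligodendrocyte markers lie farthest from the wild-type mean on knockout replicates 1 and 3.

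In the other lists the calls went both ways, were absent or, for microglia, were 1 rise, beside the background of 2.72% that rose and 3.94% that fell. Granule neuron precursor markers had 2 rises and 2 falls among 10, Purkinje cell markers 1 and 1 among 10, and Bergmann glia and astrocyte markers 3 and 1 among 9. Unipolar brush cell and cerebellar nuclei markers had 1 and 1 among 4, and microglia 1 rise and 0 falls among 7. Inhibitory interneuron and Golgi cell markers, of which Golgi cells release GABA onto granule neurons, had 0 calls among 9, with 2 at an unadjusted p under 0.05 and a median change of 0.04. Endothelium and mural cells also had 0 among 9, with 0 at an unadjusted p under 0.05. Over all genes, 10.9% were lower at an unadjusted limma p under 0.05.

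Of the other GABA-A subunit genes, 9 were measured, 1 fell, 0 rose and 8 did not pass, with a median change of -0.10. The shares over all genes were 3.94% that fell and 2.72% that rose. Gabrq, the theta subunit gene next to Gabra3 on the X chromosome, read 5.73, 5.56 and 5.59 on the knockout arrays, against 6.20, 5.97 and 5.97 on the wild-type arrays. Its log2 change was -0.42 (SE 0.11, limma adjusted p = 0.0478). The call did not survive leaving out any single array (adjusted p = 0.0705 to 0.176). All 3 knockout values and those of wild-type replicates 2 and 3 lie below 6.02, the 25th percentile of all values. They carry no detection call, and Gabrq was not in the fit with dim genes left out. The following genes of this paragraph were named after their values were seen. Gabra4, the alpha 4 gene beside Gabrb1 on chromosome 5, differed by -0.23 (SE 0.12) and did not pass. Like Gabrb1 it had its lowest value, 8.81, on knockout replicate 3 and its highest, 9.45, on wild-type replicate 1. The gamma subunit genes Gabrg1 and Gabrg3 differed by -0.04 and -0.05, with intervals of -0.22 to 0.15 and -0.23 to 0.14. Gabre, the epsilon gene, was 0.20 higher in mean (adjusted p = 0.218). The pi gene Gabrp differed by 0.0089 and the rho genes Gabrr1, Gabrr2 and Gabrr3 by -0.15, -0.10 and -0.12, and none of these passed. Another 3 subunit genes of the list were not analysed here.

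**Figure D4:**
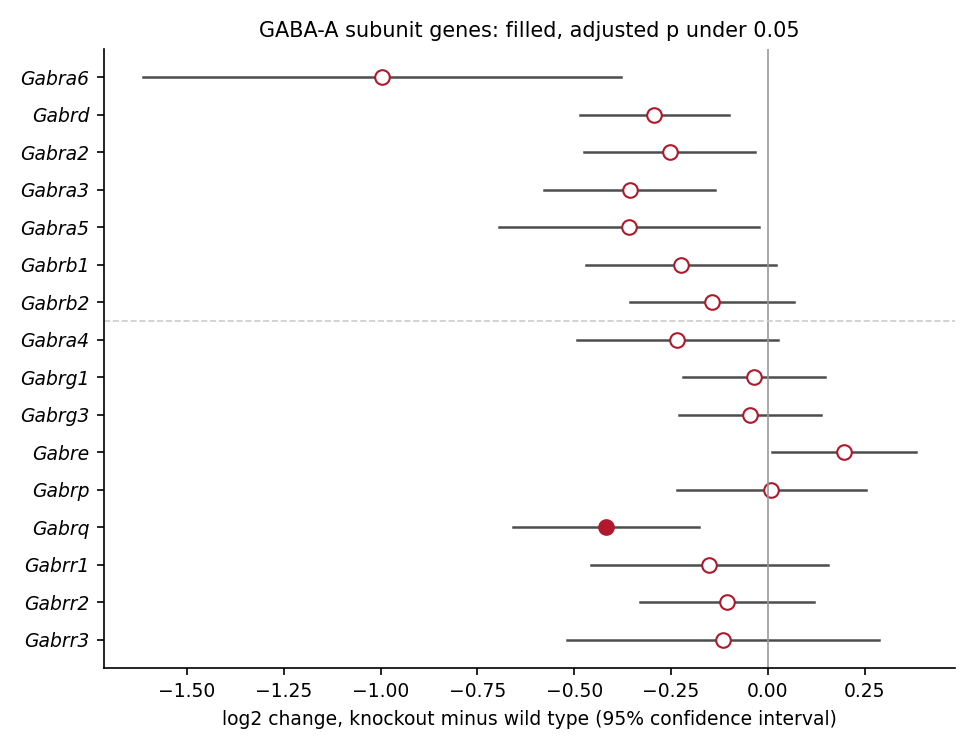
Log2 change, knockout minus wild type, with its 95% confidence interval (lines) for the 7 subunit genes above the dashed line and 9 other GABA-A subunit genes below it. Filled points passed an adjusted p under 0.05. All 7 changes above the line are negative, and Gabrq is the one filled point.

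Among 19 measured genes that cluster, anchor or traffic GABA-A receptors, 1 fell, 0 rose and 18 did not pass, with a median change of -0.14. Over all genes, 3.94% fell and 2.72% rose. The gene that fell was Plcl1, which encodes an inactive phospholipase C relative that binds receptor beta subunits and aids their trafficking. It read 8.21, 8.32 and 8.20 on the knockout arrays, against 8.69, 8.90 and 8.68 on the wild-type arrays. The groups were well apart, with a log2 change of -0.51 (SE 0.07, limma adjusted p = 0.00401), and the call held whichever single array was dropped. The log2 change was -0.47 without the arrays with high Ttr (adjusted p = 0.117) and -0.48 with those arrays alone (adjusted p = 0.0898), fits with a group of 1 array in which 124 and 96 genes fell in all. The anchor gephyrin (Gphn) and the inhibitory synapse organizer neuroligin 2 (Nlgn2), named after their values were seen, differed by -0.16 and -0.22 and did not pass (adjusted p = 0.110 and 0.0755).

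Among 8 genes of GABA synthesis, release, uptake and breakdown, limma called 0, with 3 at an unadjusted p under 0.05 and a median change of -0.06. Over all genes, 10.9% were lower at that unadjusted p, and the share that was higher is not given here. The smallest p was that of Abat, which encodes the enzyme that breaks GABA down, at -0.13 (adjusted p = 0.131). Slc6a11, the astrocyte GABA transporter gene, named after its values were seen, had the widest difference of this list. It read 10.71, 10.81 and 9.52 on the knockout arrays, against 11.36, 10.97 and 10.91 on the wild-type arrays, a change of -0.74 (SE 0.28, limma adjusted p = 0.168) in which knockout replicate 3 was again the lowest. It was -0.13 without the arrays with high Ttr. Gad1, which encodes a GABA-synthesizing enzyme and was also named after its values were seen, was 0.17 higher in mean without overlap (limma adjusted p = 0.155). Among 6 genes of the GABA-B receptor, the metabotropic GABA receptor, limma called 0, with 1 at an unadjusted p under 0.05: Kctd8, an auxiliary subunit gene, was 0.17 higher in mean (adjusted p = 0.143).

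Among 11 genes of chloride transport, which sets whether GABA-A receptors excite or inhibit, 1 fell, 0 rose and 10 did not pass, with a median change of -0.01. Over all genes, 3.94% fell and 2.72% rose. The gene that fell was Slc12a5, which encodes KCC2, the transporter that extrudes chloride as neurons mature. It read 9.33, 9.32 and 9.22 on the knockout arrays, against 9.59, 9.66 and 9.53 on the wild-type arrays. The groups did not overlap, and the log2 change was -0.30 (SE 0.06, limma adjusted p = 0.0140). The call was lost without wild-type replicate 1 (-0.30, adjusted p = 0.0640), wild-type replicate 2 (-0.26, adjusted p = 0.0556) or the arrays with high Ttr (-0.27, adjusted p = 0.308), and with those arrays alone (-0.31, adjusted p = 0.223). It was also lost with the choroid plexus mean held as a covariate (-0.26, adjusted p = 0.0942) and with eBayes without a trend (adjusted p = 0.0663). Slc12a2, which encodes the chloride importer NKCC1 and was named after its values were seen, differed by 0.0077, with an interval of -0.17 to 0.18. Slc12a4, the gene of the potassium-chloride cotransporter KCC1, also named after its values were seen, was 0.23 higher in mean without overlap and did not pass (limma adjusted p = 0.0672).

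**Figure D5:**
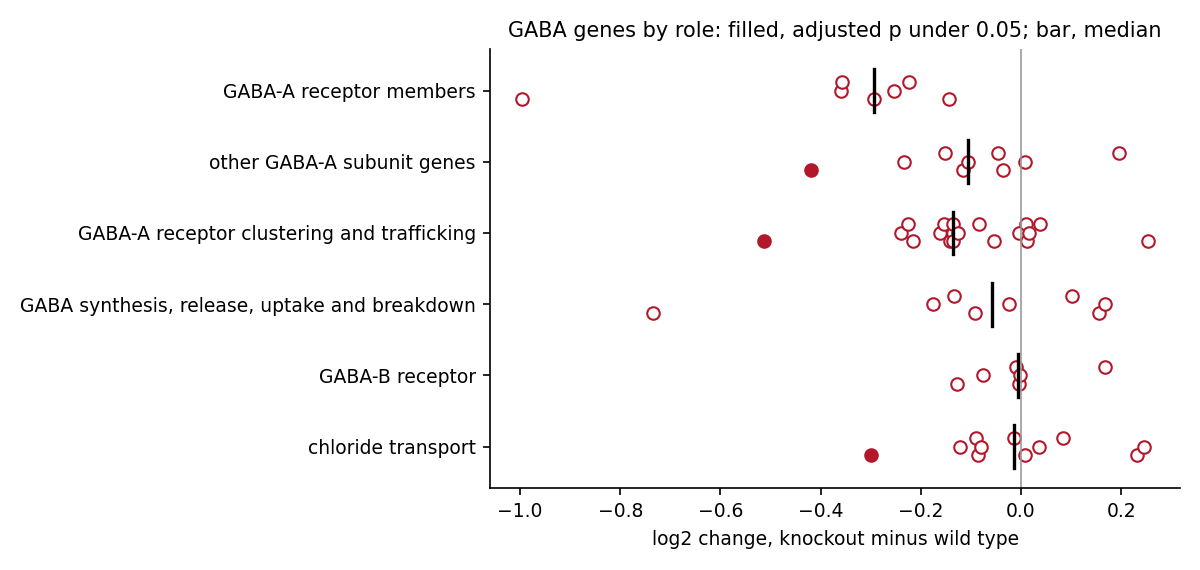
Log2 change, knockout minus wild type, of the 7 GABA-A receptor genes and of the genes in 5 lists around them. Each point is a gene, filled points passed an adjusted p under 0.05, and black bars are medians. The filled points are Gabrq, Plcl1 and Slc12a5.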

How the data were processed

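The 6 arrays gave 1 log2 expression value per probe set. Per the submitters' processing notes, the authors' deposited log2 values were made with RMA and oligo, versions not given in the sources used here, as are the array design and any filter. They were used as deposited. Of 41345 probe sets, GEO's platform annotation gave 1 symbol to 23521, several to 1814 and none to 16010. Of several single-symbol probe sets for a gene, the brightest on average was kept, which left 22180 genes.

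Groups followed the labels (3 knockout, 3 wild type). The comparison used limma 3.58.1 (R 4.3.3): lmFit and then eBayes with its trend option, two-sided, with Benjamini-Hochberg adjustment over all genes. The threshold was an adjusted p of 0.05, and "rose" and "fell" are used of genes past it. Changes are knockout minus wild type with the standard error of the fit. The fit was tested on simulated data with normal noise drawn for each gene on its own, without differences shared by genes between arrays. It called 16.4% of genes shifted by 0.3 in log2, 52.2% of those shifted by 0.5 and 87.9% of those shifted by 1. Python 3.11.15, pandas 2.3.3 and matplotlib 3.10.9 served for tables and plots.

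The members, the lists of GABA genes and cell type markers, and the alternatives were chosen with earlier results of these data known. Genes named from a list were those past the threshold, at most 4 by smallest p, or the 1 with the smallest p where none passed. Others are said to be named after their values were seen. Alternatives were eBayes without a trend or robust, array weights, a replicate block, median centring, a second quantile normalization, dropping dim genes, each array left out, Xist or the choroid plexus mean as a covariate, the 3 arrays with Ttr above 10 left out, every probe set on its own, and 2 other thresholds. A fit of those 3 arrays alone was added after the data were seen. The number of arrays limits the precision, and the values carry no detection call.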

Additional observations from a re-analysis of the deposited data

How the results depend on the processing

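All 7 changes stayed negative in 18 alternative fits, except Gabra5 and Gabrb1 without the arrays with high Ttr (0.037 and 0.0027, adjusted p = 0.955 and 0.998), where Gabra4 was at 0.031. Among the members, 0 rose in each of these fits. The count that fell was 1 with Xist as a covariate (Gabra3, -0.41) and 2 with array weights (Gabra3, -0.33, adjusted p = 0.0435, and Gabra6, -1.12, adjusted p = 0.0378). It was 3 at an adjusted p under 0.1, where the background was 5.82%, and with each array left out it ran from 0 to 1. Over those fits Gabra2 ran from -0.39 to -0.19, Gabra3 from -0.47 to -0.23, Gabra5 from -0.49 to -0.19, Gabra6 from -1.17 to -0.65, Gabrb1 from -0.31 to -0.08 and Gabrb2 from -0.22 to -0.02. Over all genes, 604 rose and 875 fell, beside 646 that fell with Xist as a covariate and 1010 with array weights. The counts were 184 and 310 without a trend, 292 and 324 with choroid plexus as a covariate, 112 and 124 without the arrays with high Ttr and 90 and 96 with those arrays alone. They were 148 and 343 at an adjusted p under 0.01, and 1023 rose at 0.1. With each array left out, 199 to 478 rose and 366 to 800 fell; the counts were lowest without wild-type replicate 1, and were 317 and 528 without knockout replicate 1. Leaving out wild-type replicate 2 gave 309 and 462. With that covariate on choroid plexus Gabra6 was at -0.81, Gabra3 at -0.17, Gabra5 at -0.18, Gabrb1 at -0.07 and Gabrb2 at -0.07. Gabrd was at -0.32 and Gabra2 at -0.31, both larger in size than in the main fit. The causes were not tested.

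The labels give replicate numbers but no pairing of the arrays. Deviations from the group means correlated at 0.01, 0.03 and -0.13 (Pearson's r across genes) for replicates 1, 2 and 3. Deviations within a group of 3 depend on each other, so these values cannot decide whether arrays of 1 number belong together. With the replicate block 723 genes rose and 1078 fell, and 2 members fell: Gabra3 (-0.36, adjusted p = 0.0374) and Gabra6 (-0.997, adjusted p = 0.00718). No array correlated best with the array of its own number in the other group.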
